A study of Homo sapiens with 6 samples.

Results

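Integrins are cell surface receptors for the extracellular matrix, each made of 1 alpha and 1 beta subunit. The alpha subunit largely sets which matrix protein is bound, and the tail of the beta subunit is linked to the actin cytoskeleton through talin and kindlin adaptor proteins. In carcinoma cells they carry adhesion, spreading and migration on laminin, collagen, fibronectin and vitronectin. The integrin genes described here are ITGA2, ITGA3, ITGA5, ITGA6, ITGAV, ITGB1, ITGB3, ITGB4, ITGB5 and ITGB8. They were chosen by gene symbol, with earlier results of these data known. They make up 10 of the 54259 gene symbols of the count table. Shares and medians of the set beside those of all tested genes are therefore a description only.

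The samples came from MDA-MB-231, an established human breast cancer cell line, and gene expression was measured by RNA sequencing. The libraries comprised 3 from cells with the hairpin against brachyury (shBry) and 3 from cells with a control hairpin (shNC). Both groups are the same cell line under a hairpin, and the labels give neither the hairpin sequences, nor the number of clones, nor a time. The labels do not say whether the replicates were separate cultures, so p-values measure the spread between these libraries only.

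The libraries held between 19319411 and 22985371 counts. Brachyury, listed under its older symbol T, had 0 counts in all 6 libraries, so the knockdown could not be checked on its target at this depth. The deposited design text calls the RNA pericardial, whereas the labels name MDA-MB-231 cells. All 5 marker genes expected in this line (VIM, CD44, AXL, CAV1 and LAPTM5) were present in every library. Of the luminal or epithelial markers, the estrogen receptor gene ESR1, PGR and CDH1 had at most 2 counts in any library. GATA3, EPCAM and KRT19 of the same list were detected. Their means in shBry and shNC were 13.0 and 10.4 CPM for GATA3, 4.28 and 1.55 for EPCAM, and 0.415 and 1.46 for KRT19. The summed level of 6 luminal or epithelial markers lay between 16.6 and 19.4 CPM in shBry and between 11.9 and 15.4 CPM in shNC, and that of 4 endothelial markers between 1.29 and 2.62 against 3.40 and 4.63 CPM. For 6 fibroblast markers, with DCN at 0 counts, the ranges were 31.7 to 35.4 and 29.9 to 35.1 CPM, and for 4 platelet markers, with GP9 and GP1BA at 0 counts, they were 1.52 to 1.86 and 2.85 to 3.76 CPM. The part of these markers in the results was not tested. Replicate libraries of a group were distinct, since their counts gave chi-square values of 4.98 to 16.8 for each degree of freedom over genes.

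Levels are given as CPM, the reads of a gene relative to the library total and scaled with TMM. Changes are shBry relative to shNC on the log2 scale. Of the 10 integrin genes, 9 had enough counts to be tested with edgeR's quasi-likelihood test over 15277 genes. The edgeR adjusted p is that of this test after Benjamini-Hochberg adjustment over all of them, and calling a gene required both a value under 0.05 and a change of over 1.5-fold. Of the 9 genes, 4 were called. ITGAV, ITGA3 and ITGA5 were higher in shBry, and ITGB5 was lower. Among all tested genes, 32.4% were called, 17.1% higher and 15.2% lower in shBry. The median log2 fold change was 0.29 over the 9 integrin genes and 0.033 over all tested genes. An adjusted p below 0.05 without regard to fold change was reached by 7 of the 9 genes, beside 53.3% of all tested genes, and ITGA6, ITGB1 and ITGB3 were the genes under the fold change limit. In the same 7 genes the libraries of both groups were fully separated, as in 59.5% of all tested genes. The 10 genes together took between 0.229% and 0.246% of all counts in the shNC libraries and between 0.324% and 0.352% in the shBry libraries. These sums are dominated by ITGA3, which alone held 35697 of 62511 counts in shBry replicate 1 and 26474 of 53462 in shNC replicate 1.

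**Figure D1:**
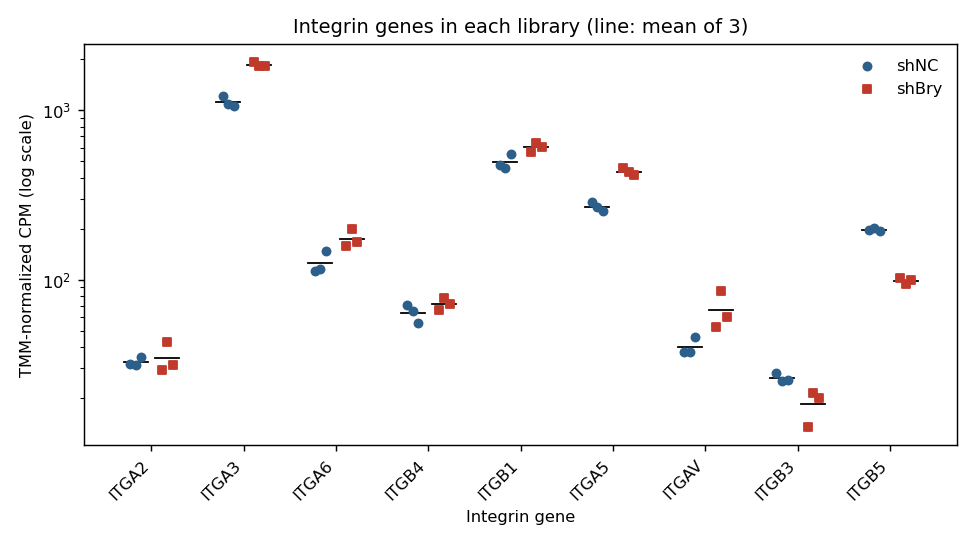
Each point is 1 library, on a log axis of TMM-normalized CPM, for the 9 tested integrin genes in shNC (blue circles) and shBry (red squares), and the line is the mean of 3. ITGA3 lay between 1065 and 1213 CPM in shNC and between 1820 and 1922 CPM in shBry, and ITGB5 lay near 197 CPM in shNC and near 98.6 CPM in shBry.

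The laminin receptors were examined first. ITGA3 encodes the alpha subunit of α3β1, a receptor for basement membrane laminins, and lies on the plus strand of chromosome 17, from 50055968 to 50090481 (GRCh38, as for all locations given here). It had 1922, 1820 and 1820 CPM in shBry replicates 1, 2 and 3, and 1213, 1094 and 1065 CPM in shNC. Every shBry library was above every shNC library. ITGA3 rose from 1124 ± 78.6 to 1854 ± 58.7 CPM (SD, n = 3), which is 0.72 on the log2 scale (SE 0.079, edgeR adjusted p of 3.7e-06). It had the highest CPM of the 10 genes in both groups.

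ITGA6 encodes the other laminin-binding alpha subunit of the set, which pairs with either β1 or β4, and lies on chromosome 2 from 172427354 to 172506282 on the plus strand. It had 157, 198 and 167 CPM in shBry and 112, 115 and 147 CPM in shNC. The lowest shBry library and the highest shNC library were close, but the groups did not overlap. The log2 fold change was 0.48 (SE 0.11, edgeR adjusted p of 0.0026), which lies under the fold change limit of 1.5. Without shNC replicate 3, which was the highest control library, the log2 fold change was 0.59 and ITGA6 was called higher (edgeR adjusted p of 0.00078).

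ITGB4 encodes the β4 subunit, whose long cytoplasmic tail anchors keratin filaments at hemidesmosomes, and lies on chromosome 17 from 75721328 to 75757818 on the plus strand. It had 66.6, 78.1 and 72 CPM in shBry and 70.4, 65.6 and 55.6 CPM in shNC. The groups overlapped, and the log2 fold change of 0.18 (95% interval -0.041 to 0.40, edgeR adjusted p of 0.16) did not pass the test. The interval does not reach a fold change of 1.5 in either direction.

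The promoter window of ITGA6 is shown because it was the only integrin window with the T-box core AGGTGT, the sequence that brachyury and its relatives are known to bind. RefSeq promoter windows of 300 bases, from 250 before to 50 after a gene start, were at hand for 7 of the 10 genes, with 12 windows in all (GRCh38.p14). They were searched on both strands for the T-box core AGGTGT, for its longer form AGGTGTGA, which contains the core, and for the AP-1 site TGANTCA, which is its own reverse complement apart from the middle base. The core was found in 11.4% of 35116 windows of all genes, the longer form in 0.98%, and the AP-1 site in 7.71%. The first ITGA6 window held 3 cores, at 244, 211 and 137 bases before the gene start, and 0.0997% of all windows held 3 or more. No integrin window held the longer form, and the ITGA5 window held 1 AP-1 site that begins 6 bases before the start. A match is only a match of letters. The 250 bases before the start of ITGA6, chr2:172427086-172427335 on the plus strand, are printed 5′ to 3′ with the cores in capitals, the last of them read on the opposite strand.
ITGA6: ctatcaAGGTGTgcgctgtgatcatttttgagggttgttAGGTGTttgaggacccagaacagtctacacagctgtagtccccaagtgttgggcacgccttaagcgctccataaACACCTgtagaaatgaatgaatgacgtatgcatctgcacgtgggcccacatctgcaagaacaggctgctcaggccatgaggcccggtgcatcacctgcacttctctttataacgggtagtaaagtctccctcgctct

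The collagen receptor subunit and the common beta subunit showed smaller differences. ITGA2 encodes the alpha subunit of the collagen receptor α2β1 and lies on chromosome 5 from 52989326 to 53094779 on the plus strand. It had 29.3, 42.6 and 31.3 CPM in shBry and 31.6, 31.5 and 34.9 CPM in shNC. The shBry libraries lay on both sides of the shNC libraries. The log2 fold change was 0.077 (95% interval -0.21 to 0.36, edgeR adjusted p of 0.65). Without shBry replicate 2, the highest library, it was -0.12 (edgeR adjusted p of 0.37), so the sign of the difference rested on that library.

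ITGB1 encodes the β1 subunit, the partner of α2, α3, α5, α6 and αv among the proteins of these genes, and lies on chromosome 10 from 32900319 to 33005792 on the minus strand. It had 568, 639 and 609 CPM in shBry and 473, 459 and 554 CPM in shNC. The groups did not overlap, though the highest shNC library came close to the lowest shBry library. The log2 fold change was 0.29 (SE 0.088, edgeR adjusted p of 0.013), under the fold change limit. Without shNC replicate 1 it was 0.25 (edgeR adjusted p of 0.055), and without shNC replicate 2 it was 0.22 (edgeR adjusted p of 0.097). Stretches of 50 bases that also occur in transcripts of the gene AC022149.1 made up 8.87% of those in ITGB1 transcripts, so a part of its reads could have been placed on either copy.

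Among the receptors for fibronectin and vitronectin, the alpha subunit genes ITGA5 and ITGAV were called higher and the beta subunit gene ITGB5 was called lower in shBry. ITGA5 encodes the alpha subunit of the fibronectin receptor α5β1 and lies on chromosome 12 from 54395261 to 54419460 on the minus strand. It had 455, 433 and 416 CPM in shBry and 287, 269 and 255 CPM in shNC. Its 3 shBry values were all well above the shNC values, with little spread inside either group. ITGA5 rose from 270 ± 16.3 to 435 ± 19.5 CPM (SD, n = 3), which is 0.69 on the log2 scale (SE 0.079, edgeR adjusted p of 5.8e-06).

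ITGAV encodes the αv subunit, which pairs with several beta subunits to bind matrix proteins with an RGD sequence, and lies on chromosome 2 from 186590065 to 186680901 on the plus strand. It had 52.7, 85.6 and 60.2 CPM in shBry and 37.4, 37.5 and 45.6 CPM in shNC. The groups did not overlap, and shBry replicate 2 stood far above the other shBry libraries. ITGAV rose from 40.2 ± 4.69 to 66.2 ± 17.3 CPM (SD, n = 3), which is 0.72 on the log2 scale (SE 0.15, edgeR adjusted p of 0.0011). Without shBry replicate 2 the log2 fold change was 0.48 (edgeR adjusted p of 0.001) and ITGAV was no longer called, because it fell under the fold change limit.

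ITGB5 encodes the β5 subunit of the vitronectin receptor αvβ5 and lies on chromosome 3 from 124761948 to 124901418 on the minus strand. It had 102, 94.6 and 99.4 CPM in shBry and 196, 200 and 194 CPM in shNC. The groups were far apart beside their own spread. ITGB5 fell from 197 ± 3.43 to 98.6 ± 3.65 CPM (SD, n = 3), which is -0.997 on the log2 scale (SE 0.076, edgeR adjusted p of 1e-07). Among the 9 tested genes of the set it had the largest change in either direction and the smallest adjusted p.

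ITGB3 encodes the β3 subunit of αvβ3, also a vitronectin receptor, and lies on chromosome 17 from 47253846 to 47311816 on the plus strand. It had 13.5, 21.5 and 20 CPM in shBry and 28.3, 25.2 and 25.5 CPM in shNC. The groups did not overlap, and shBry replicate 1 was the lowest library. The log2 fold change was -0.52 (SE 0.15, edgeR adjusted p of 0.01), under the fold change limit. ITGB3 was called lower without shBry replicate 2 (log2 fold change -0.66) and without shBry replicate 3 (-0.59), and it moved to -0.35 without shBry replicate 1. On the same strand, the gene AC068234.1 covers 51.6% of the exon bases of ITGB3 in GENCODE 29, and reads in that stretch could have come from either gene. AC068234.1 has no row under that symbol in the table used here.

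ITGB8 encodes the β8 subunit, which with αv is known for the activation of latent TGF-β. It lies on chromosome 7 from 20330702 to 20415754 on the plus strand. It had 1, 0 and 1 counts in shBry and 2, 5 and 1 counts in shNC. The expression filter removed it, and a difference was not detectable at this depth, since 3 counts, the limit behind a count of 0, are worth between 0.126 and 0.162 CPM in these libraries (counting error only).

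A window before a transcript start is shown for ITGAV and for ITGB5, the genes with the largest rise and the largest fall of the set. The rise of ITGAV (log2 fold change 0.723) was almost the same as that of ITGA3 (0.722). Neither window held any of the 3 motifs. For ITGAV the 250 bases chr2:186589806-186590055 on the plus strand are printed. For ITGB5 the 234 bases chr3:124887366-124887599 on the minus strand are printed, which end before the start of a shorter transcript and hold no exon base in GENCODE 29. They lie inside the gene. The window directly before the gene, chr3:124901419-124901668, also held none of the 3 motifs and is not printed. Both are 5′ to 3′ in lower case without capitals.
ITGAV: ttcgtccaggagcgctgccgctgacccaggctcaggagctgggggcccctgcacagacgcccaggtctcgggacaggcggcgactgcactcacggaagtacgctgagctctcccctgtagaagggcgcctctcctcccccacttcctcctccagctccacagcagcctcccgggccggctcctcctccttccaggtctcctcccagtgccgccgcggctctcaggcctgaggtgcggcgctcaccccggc
ITGB5: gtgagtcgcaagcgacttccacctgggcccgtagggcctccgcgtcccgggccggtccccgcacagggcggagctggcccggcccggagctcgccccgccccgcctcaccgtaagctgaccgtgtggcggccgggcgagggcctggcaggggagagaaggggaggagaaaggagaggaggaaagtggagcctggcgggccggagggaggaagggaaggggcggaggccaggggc

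**Figure D2:**
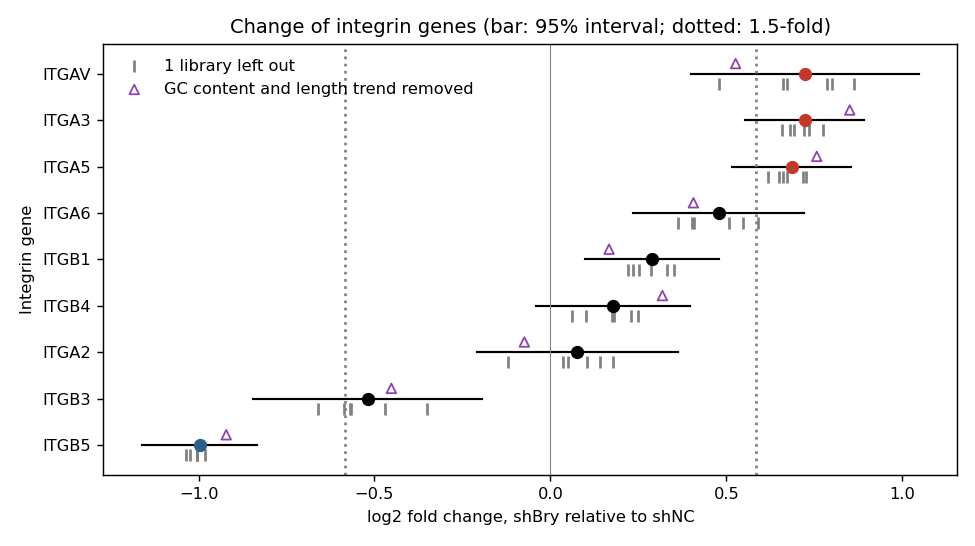
Log2 fold changes of the 9 tested integrin genes, shBry relative to shNC, with 95% intervals (bars), fits with 1 library left out (ticks) and the fit with the trend with GC content and transcript length removed (triangles). ITGB5 at -0.997 lay beyond the 1.5-fold lines (dotted) in every fit shown, while ITGAV at 0.72 fell inside them without shBry replicate 2 (0.48) and with the trend removed (0.53).

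The libraries differed from each other in a way that followed GC content. Several integrin genes moved in the direction of this trend, though not always by the same amount. ITGB3 and ITGB4 moved the other way in shBry replicates 1 and 2. ITGAV, ITGB1, ITGA2 and ITGA6 have the lowest GC content of the tested set, between 38.3% and 42.9% over the longest transcript. Within their groups, all 4 genes were highest in shBry replicate 2 and in shNC replicate 3. The 2063 tested genes with at most 40% GC had a median deviation from their group mean of 0.19 in shBry replicate 2 and 0.21 in shNC replicate 3, on the log2 scale. In shBry replicate 1 the median was -0.15, and in shNC replicate 1 it was -0.16. ITGA2 and ITGA6 lie between 40% and 45% GC, where the medians were 0.039 in shBry replicate 2 and 0.11 in shNC replicate 3. In shBry replicate 2 ITGA2 deviated by 0.33 and ITGA6 by 0.19, which is further than that median. In shNC replicate 3 they deviated by 0.097 and 0.25. ITGAV deviated by 0.40 in shBry replicate 2 and by -0.30 in shBry replicate 1. ITGB3 (52.3% GC) and ITGB4 (63.7%) were also highest in shBry replicate 2 within that group, at 0.26 and 0.12. The medians there were -0.065 for genes of 50% to 55% GC and -0.076 above 60%. In shNC replicate 3 ITGB4 was at -0.19, with a median of -0.12 above 60% GC.

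The fold changes between groups also followed GC content, with a median log2 fold change of 0.21 among genes with at most 40% GC and of -0.11 among the 1998 genes above 60%. With the trend with GC content and length removed from each library, the log2 fold change was 0.53 for ITGAV, which was then not called (edgeR adjusted p of 0.00012). In that fit ITGA3 had 0.85, ITGA5 had 0.76 and ITGB5 had -0.92, and all 3 stayed called. ITGB1 had 0.17 and ITGA6 had 0.41. ITGB4, with 63.7% GC, had 0.32 (edgeR adjusted p of 0.0023), and ITGA2 had -0.074. This fit was chosen after the data were seen. The part of the GC trend in the results for these genes was not otherwise tested.

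**Figure D3:**
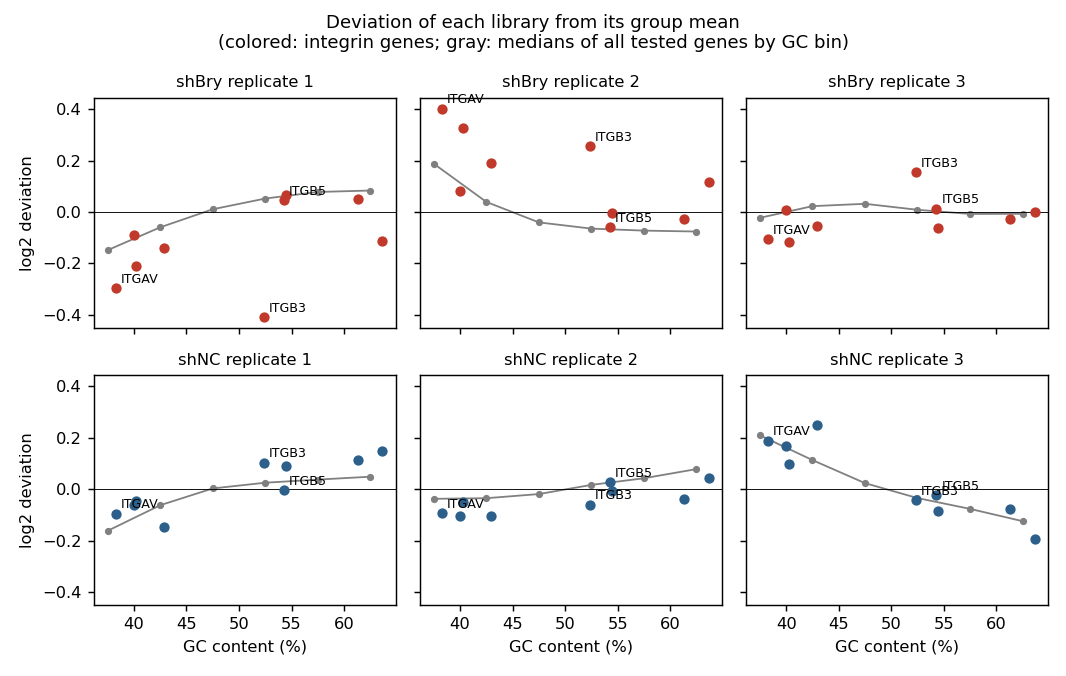
Deviation of each library from the mean of its group, in log2 CPM, against the GC content of the longest transcript in percent, with 1 panel for each library, 1 colored point for each of the 9 integrin genes and gray medians of all tested genes in 6 bins of GC content, the end bins being open and drawn close to their inner edge. Points of low GC content lie above 0 in shBry replicate 2 and shNC replicate 3. ITGB3 and ITGB4 also lie above 0 in shBry replicate 2, and ITGB5 stays near 0 in all 6 panels.

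Levels were then compared between the integrin genes as CPM per kilobase of exon, since longer transcripts yield more reads. In shNC the order of the mean levels was ITGA3 (115 ± 8.02 CPM per kb, SD, n = 3), ITGB1 (82.4 ± 8.55), ITGA5 (35.7 ± 2.15), ITGB5 (30.5 ± 0.533), ITGA6 (19.1 ± 2.98), ITGB4 (9.45 ± 1.12), ITGB3 (6 ± 0.379), ITGAV (4.89 ± 0.571), ITGA2 (4.13 ± 0.245) and ITGB8 (0.00831 ± 0.00645). No neighbours in this order overlapped in their 3 libraries. In shBry, ITGA6 (26.6 ± 3.25 CPM per kb) stood above ITGB5 (15.3 ± 0.567), and ITGAV (8.06 ± 2.1) stood above ITGB3 (4.17 ± 0.962). ITGA2 (4.35 ± 0.904 CPM per kb in shBry) and ITGB3 overlapped there, and so did ITGB4 (10.7 ± 0.851) and ITGAV. Per kilobase of the longest coding sequence instead, ITGAV ranked above ITGB4 in both groups, and ITGA5 and ITGB5 overlapped in shNC, as did ITGAV with ITGB4 and ITGB4 with ITGB3. On that scale the mean of ITGAV was above that of ITGB3 in shNC as well, with 12.8 ± 1.49 against 11.1 ± 0.705 CPM per kb of coding sequence. Their shNC libraries overlapped, and in replicate 1 ITGB3 was slightly higher, with 11.96 against 11.91. The exchange of order between the means of ITGAV and ITGB3 was thus seen per kilobase of exon only. The first 5 ranks otherwise held the same genes in the same order in each group.

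Ratios of subunits that pair with each other or share a partner were compared in each library on this scale, as a description without a test. The ratio of ITGB5 to ITGAV was 6.68, 6.81 and 5.41 in shNC replicates 1, 2 and 3, and 2.46, 1.41 and 2.1 in shBry. The groups did not overlap, and the mean ratio was 6.3 ± 0.773 in shNC against 1.99 ± 0.535 in shBry (SD, n = 3). The ratio of ITGB3 to ITGAV was 1.24 ± 0.183 in shNC against 0.523 ± 0.0851 in shBry, again without overlap. Per kilobase of coding sequence the ratio of ITGB3 to ITGAV was 0.882 ± 0.13 in shNC against 0.372 ± 0.0605 in shBry, also without overlap. The ratio of ITGB3 to ITGB5 overlapped between the groups. The ratio of ITGA5 to ITGB1 was 0.437 ± 0.0633 in shNC and 0.572 ± 0.0553 in shBry, and that of ITGA3 to ITGB1 was 1.4 ± 0.203 in shNC and 1.89 ± 0.171 in shBry. Both were without overlap between groups. The ratio of ITGB1 to ITGAV was 16.9 ± 0.352 in shNC and 12.9 ± 2.39 in shBry, also without overlap. It was 14.7, 10.2 and 13.8 in shBry replicates 1, 2 and 3. The ratios to ITGAV all contain its rise, which was smaller without shBry replicate 2 and with the GC and length trend removed. Taken as single genes, 59.5% of all tested genes had no overlap between the groups. The ratio of ITGA3 to ITGA6 and that of ITGB4 to ITGA6 overlapped. These are ratios of RNA, and protein or surface levels were not measured in these data.

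**Figure D4:**
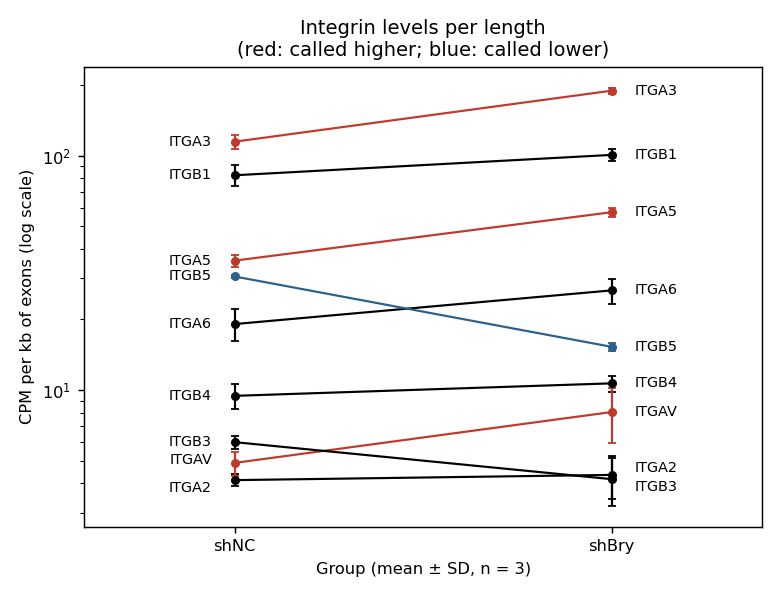
Mean CPM per kilobase of exon, on a log axis, in shNC (left) and shBry (right), with SD of 3 libraries as error bars, for the 9 tested integrin genes. The line of ITGB5 falls from 30.5 to 15.3 and crosses that of ITGA6, which lies at 19.1 and 26.6, and the line of ITGAV crosses that of ITGB3, which it does not do per kilobase of coding sequence.

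The genes with a pattern most like ITGAV and ITGB5 were found by the distance between log2 CPM profiles, each centered on its mean over the 6 libraries, among 15276 genes. For ITGAV these were TNPO1 (distance 0.101), CCPG1 (0.169) and PAPOLG (0.174), with a median distance of 1.17 over all genes. For ITGB5 they were PPP2R5D (0.0701), ECI2 (0.0701) and CCDC74A (0.0735), with a median of 1.38. The distances rest on 6 libraries that all genes share, and they are given as a description.

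The remaining 16 integrin subunit genes were read from the same fit. Of these, 9 were tested, 2 were called higher and 3 lower in shBry, which is 55.6% called beside 32.4% of all tested genes (17.1% higher and 15.2% lower). Their median log2 fold change was -0.17, beside 0.033 over all tested genes. ITGB2, the β2 subunit of leukocyte integrins, rose from 11.4 ± 0.284 to 30.5 ± 2.53 CPM (SD, n = 3), which is 1.41 on the log2 scale at an edgeR adjusted p of 2.5e-07. ITGAM, one of its alpha partners, rose from 1.05 ± 0.075 to 4.94 ± 0.631 CPM, which is 2.23 on the log2 scale at an edgeR adjusted p of 1.9e-06. Of the 7 leukocyte markers, PTPRC and TYROBP were at 0 counts in all libraries, LYZ, CD53 and ITGAL had at most 5, and only ITGB2 and ITGAM had more than 10. The summed level of the 7 markers lay between 33.3 and 37.8 CPM in shBry and between 12.5 and 13.1 CPM in shNC, nearly all of it from ITGB2 and ITGAM. ITGA7, which binds laminin in muscle, fell from 9.29 ± 1 to 3.67 ± 0.805 CPM, which is -1.33 on the log2 scale at an edgeR adjusted p of 3.8e-05. ITGA2B and ITGA10, named after their values were seen, were the other genes called lower, with log2 fold changes of -1.03 and -1.55 and mean levels of at most 3.28 CPM in either group.

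Genes that act with the integrins were read from 4 lists written by hand, with earlier results of these data known. Their shares and medians are likewise a description. Of 30 tested activators and adaptors on the cytoplasmic side, 6 were called higher and 5 lower, which is 36.7% called beside 32.4% of all tested genes and so near the background, and the median log2 fold change was 0.18. FERMT1 and FERMT3, which encode kindlins that bind beta subunit tails, rose, with FERMT1 going from 23.1 ± 2.58 to 54.3 ± 1.91 CPM (SD, n = 3) and FERMT3 from 264 ± 9.81 to 503 ± 33.1 CPM. Their log2 fold changes were 1.24 and 0.93 (edgeR adjusted p of 3e-07 for both). The third kindlin gene, FERMT2, had 0.44 (edgeR adjusted p of 0.015), with overlapping groups, and was not called. The talin gene TLN1 had a log2 fold change of -0.025 (edgeR adjusted p of 0.83). The other talin gene, TLN2, had -0.39 (edgeR adjusted p of 0.009), under the fold change limit. FERMT2, TLN1 and TLN2 were also named after their values were seen. TNS2, which encodes a tensin, fell from 90.3 ± 8.83 to 45.9 ± 2.56 CPM, which is -0.98 on the log2 scale at an edgeR adjusted p of 1.2e-06. ACTN4, which encodes an actin-crosslinking actinin, fell from 19.5 ± 3.33 to 8.12 ± 1.21 CPM, which is -1.27 on the log2 scale at an edgeR adjusted p of 1.3e-05. Exons of other genes cover 14.2% of the exon bases of ACTN4. It had 167 to 506 counts in a library, beside 11499 to 14385 for ACTN1, the other actinin gene of the list. Whether all reads of ACTN4 were counted is not known. VCL (-0.90), TGFB1I1 (-0.88) and ILK (-0.60) were the other genes called lower, and were named after their values were seen, with 78.5% of the exon bases of ILK covered by other genes. Without shBry replicate 3, 7 genes of the list were called higher and 4 lower.

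Of 7 tested genes for proteins that hold integrins inactive or compete at their tails, 1 was called higher and 0 lower with edgeR, which is 14.3% called beside 32.4% of all tested genes. Of the 7, 2 had an adjusted p below 0.05, beside 53.3% of all tested genes, and the median log2 fold change was -0.080. KANK2, named after its values were seen, was at the limit, with a log2 fold change of -0.58 (edgeR adjusted p of 4.3e-05).

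Of 24 tested ligand genes, 11 were called higher and 1 lower, beside 17.1% and 15.2% of all tested genes, and the median log2 fold change was 0.54. LAMB3, which encodes the beta chain of the epithelial laminin bound by α3β1 and α6β4, rose from 379 ± 25.2 to 1311 ± 47.6 CPM (SD, n = 3), which is 1.79 on the log2 scale at an edgeR adjusted p of 5.2e-10. LAMA3, the alpha chain gene of the same laminin, named after its values were seen like FN1 and VTN, was the ligand gene called lower, with 11.5 ± 2.43 CPM in shBry against 18.6 ± 0.804 in shNC and a log2 fold change of -0.69 (edgeR adjusted p of 0.0015). L1CAM, a cell adhesion molecule that α5β1 and αvβ3 can bind, rose from 21.3 ± 1.52 to 75 ± 2.35 CPM, which is 1.82 on the log2 scale at an edgeR adjusted p of 2.3e-09. The fibronectin gene FN1 had a log2 fold change of -0.036 (edgeR adjusted p of 0.81), and the vitronectin gene VTN had 0 counts in all libraries. Without shBry replicate 3, 11 ligand genes were called higher and 0 lower, and LAMA3 was the gene concerned. Exons of other genes cover 11.0% of the exon bases of L1CAM.

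Of 15 surface partners, 3 were called higher and 1 lower, with a median log2 fold change of -0.074. The 26.7% called did not exceed the 32.4% of all tested genes, so the values below are those of single genes and not of the list. SLC3A2, which encodes the CD98 heavy chain that binds beta subunits and carries amino acid transporters, rose from 240 ± 6.76 to 1147 ± 125 CPM (SD, n = 3), which is 2.26 on the log2 scale at an edgeR adjusted p of 1.7e-10. SDC4, a syndecan that acts with α5β1 on fibronectin, rose from 249 ± 12.8 to 503 ± 35.9 CPM, which is 1.01 on the log2 scale at an edgeR adjusted p of 1.8e-07. PLAUR, the urokinase receptor gene, named after its values were seen, was the other gene called higher, with 0.93. CAV1, which encodes caveolin, fell from 189 ± 16.8 to 87.6 ± 4.68 CPM, which is -1.11 on the log2 scale at an edgeR adjusted p of 1.4e-07. Among the tetraspanin genes of the list, also named after their values were seen, CD9, CD63, CD81, CD82 and CD151, none was called by edgeR with the fold change limit, and their log2 fold changes lay between -0.33 and 0.31. Of these 5 genes, 4 had an edgeR adjusted p below 0.05, beside 53.3% of all tested genes, and CD63 did not. DESeq2 also called 4 of the 15 surface partners.

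**Figure D5:**
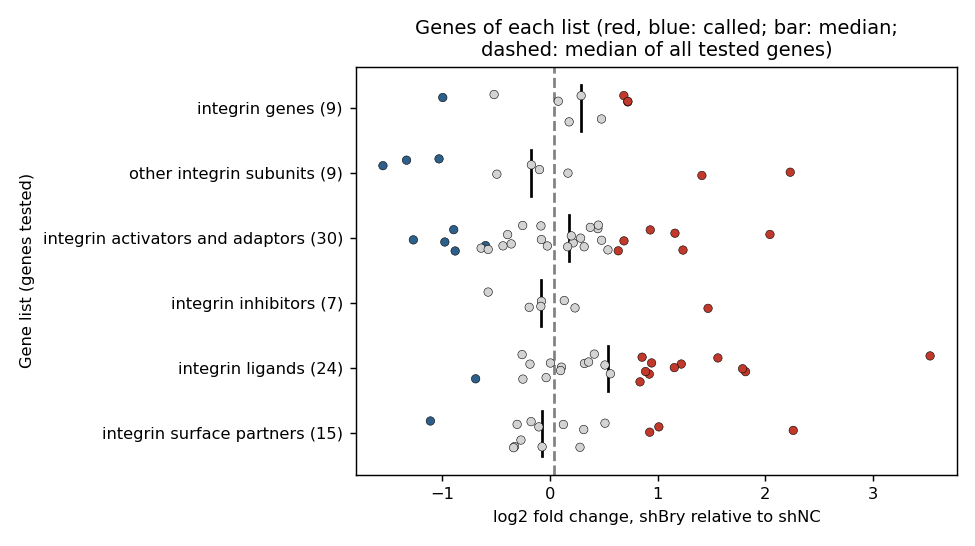
Log2 fold changes of the tested genes of each list, shBry relative to shNC, with the number tested beside the list name, genes called higher in red and lower in blue, list medians as bars and the median of all tested genes (0.033) as a dashed line. The ligand list has its median at 0.54, and the other integrin subunits spread from -1.55 to 2.23.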

How the data were processed

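Gene expression was measured by RNA sequencing in shBry (n = 3) and shNC (n = 3) cells of the MDA-MB-231 line. The count table deposited by the authors holds reads per gene symbol and library, not normalized. The submitters' processing notes name HISAT2 2.0.4, HTSeq and GRCh38, while the annotation and the strand setting are not given in the sources used here, so antisense and overlapping genes could share or lose reads. Columns were matched to samples by their titles.

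Genes were filtered with filterByExpr (minimum count 10) and TMM factors were applied. In R 4.3.3, edgeR 4.0.16 (glmQLFit and glmQLFTest) tested shBry against shNC over 15277 genes. The edgeR fit was tried on simulated counts with the same dispersion for every gene and no GC trend. That trial does not cover the library differences described above. Standard errors are the log2 fold change divided by the square root of F. Locations, lengths, GC content and overlaps came from GENCODE 29 (GRCh38), matched by symbol, and promoter windows from RefSeq.

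The integrin genes and the lists were chosen with earlier results of these data known. All integrin genes are named, and of each other list the 3 called genes with the smallest adjusted p and the called gene with the largest change at 10 CPM or more. Not every gene picked this way is reported here. Genes outside this rule were named after their values were seen. The main fit did not use replicate numbers as pairs, and whether they pair the samples is not known.

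The alternatives were unscaled library sizes, DESeq2 1.42.0, limma-voom (limma 3.58.1), no filter, 10 counts in every library, unadjusted p, fold change limits of 2 or none, a replicate block, each library left out and, for levels, coding length. A fit with per-library GC and length trends as offsets (13587 genes) was added after seeing the data.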

Additional observations from a re-analysis of the deposited data

How the results depend on the processing

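The number of integrin genes called was 4 with edgeR, with unscaled library sizes, with DESeq2, with limma-voom, without the filter, with at least 10 counts in every library and with unadjusted p. With a fold change limit of 2 edgeR called 0 of them, and ITGB5 was at the limit, with a log2 fold change of -0.997 in edgeR and -1.02 in DESeq2. Without a limit 7 integrin genes were called, beside 53.3% of all tested genes. With the GC and length trend removed 3 were called. Over all genes these limits gave 2297 and 8139 calls in place of 4945. With each library left out, 4 or 5 integrin genes were called. ITGAV was lost without shBry replicate 2, ITGA6 was gained without shNC replicate 3, and ITGB3 was gained without shBry replicate 2 or 3. ITGA2 was reversed to -0.12 without shBry replicate 2 and to -0.074 with the GC and length trend removed, and ranged from -0.12 to 0.18 with 1 library left out.

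Activators and adaptors went from 11 calls to 4 at a limit of 2 and 23 without one, ligands from 12 to 6 at 2, and surface partners from 4 to 10 without a limit. Inhibitors had 2 calls in place of 1 with unscaled library sizes, DESeq2, no filter, 10 counts in every library and no limit, and 1 or 2 with a library left out.

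With the replicate number as a block, 4914 genes and 4 integrin genes were called, and no call of an integrin gene changed. The deviations of same-numbered libraries correlated at 0.169, -0.0737 and -0.0223, and those of differently numbered libraries at -0.202 to 0.207. These values rest on 3 libraries in each group that also differ along GC content. They cannot decide whether the numbers pair the samples. Depth limited ITGB8, with at most 5 counts in a library.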
